A study of Danio rerio with 32 samples.

Results

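V2a interneurons that had regrown an axon past a spinal cord lesion were compared, 8 weeks after the injury, with V2a interneurons of uninjured zebrafish that had been labelled by the same tracer. V2a interneurons are excitatory, glutamatergic neurons of the ventral spinal cord. They send axons down the same side of the cord and drive motor neurons during swimming. Adult zebrafish regrow axons across a spinal lesion and recover swimming, unlike adult mammals.

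All cells came from adult Tg(Chx10:GFP) fish, which carry a green reporter in these neurons, and were collected by fluorescence sorting from spinal cord segments 1 to 7. Rhodamine dextran, a red tracer taken up by axons and carried to the soma, separated the green cells into traced (D) and untraced (G) cells. The group D8W held 6 libraries of traced cells, labelled as neurons with a regrown axon, taken 8 weeks after spinal cord injury. The group Dcon held 5 libraries of traced cells from uninjured fish. Both groups shared the transgene, the tracer and the sort. Each condition pooled tissue from 20 fish, and no label ties a library to its own fish. The p-values therefore rest on the spread between libraries, which may be technical. In the limma test that spread was estimated over all 32 libraries of the series, in 6 groups, and not over D8W and Dcon alone. The other 4 groups of the series were uninjured untraced cells (Gcon, 6 libraries), untraced cells at 3 and 8 weeks (G3W and G8W, 5 each) and traced cells at 3 weeks (D3W, 5).

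The comparison covered the 13514 genes that stood at 1 FPKM or more in at least 5 of the 11 D8W and Dcon libraries, of 42370 genes in the table. FPKM is the number of sequenced fragments scaled to the length of the gene and to the total of the library. Of these genes, 12016 carried an Ensembl ID and 1498 had been assembled outside the annotation. In all, 3918 reached 1 FPKM in all 11 libraries and 1551 in exactly 5. The median of the mean level was 2.09 FPKM for the genes at exactly 5 libraries and 1.53 FPKM for the 1800 genes at exactly 4, which were left out. A total of 42 genes entered through 5 or more D8W libraries with no Dcon library at 1 FPKM, and 1 gene entered the opposite way.

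Library totals inferred from the steps of the FPKM values were 21.0 to 27.5 M fragments in Dcon and 9.42 to 19.0 M in D8W, so that 3 fragments in a gene of 1 kb equal 0.109 to 0.319 FPKM. Dcon libraries had 12624 ± 1481 genes at 1 FPKM or more (SD, n = 5) and D8W libraries had 13838 ± 2253 (SD, n = 6), a difference within the spread (exact permutation test, two-sided, p = 0.377, adjusted over 5 library measures 0.377). Levels below are deposited FPKM. Fold changes are on the log2 scale of scaled FPKM plus 1, given with their SE, and the scaling moved their median over the 13514 genes from -0.18 on deposited FPKM to 0.11. Of the 13514 genes, 7523 (55.7%) had a positive fold change on scaled FPKM and 5991 a negative one.

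After the values were seen, 2 libraries that stood apart from their groups were singled out. Other libraries stood apart on other genes, as given below. In Dcon replicate 4, the vesicular glutamate transporter SLC17A6 (ENSDARG00000041150) stood at 5.81 FPKM, and at 51.5 to 140 in the other 4 Dcon libraries. The cholinergic genes CHAT, which makes acetylcholine, and SLC5A7 (ENSDARG00000074860), which takes up choline, stood at 389 and 459 FPKM there and at 1.26 to 59.0 and 0.931 to 62.8 in the other Dcon libraries. Of the 11 libraries, the one labelled Dcon replicate 4 had the lowest SLC17A6 and the highest CHAT and SLC5A7. D8W replicate 1 had 18215 genes at 1 FPKM or more, against 11897 to 13786 in the other D8W libraries. It also had the highest levels in its group of the astroglial gene GFAP (409 FPKM) and the complement gene c1qc of microglia (45.9 FPKM). Results are given below with and without these libraries where they decide a call.

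Of the V2a identity genes, LHX4, a LIM-homeodomain factor of V2a cells, stood at 30.5, 104, 66.6, 30.1 and 45.2 FPKM in Dcon and at 0.425 to 47.6 in D8W. LHX3 stood at 0, 36.4, 29.9, 0 and 7.47 FPKM in Dcon and at 2.90 to 25.7 in D8W. Of the 6 V2a identity genes analysed 0 passed limma's test, and 1 had an unadjusted p under 0.05. Their median fold change was -0.27, and -0.60 without Dcon replicate 4 and D8W replicate 1. The V2a list summed to 463, 885, 519, 77.3 and 439 FPKM in Dcon and to 118 to 329 in D8W. On deposited FPKM every D8W library lay below every Dcon library other than replicate 4. Once scaled, the sum of D8W replicate 3 lay above that of Dcon replicate 1. Genes of the neighbouring V2b and V3 classes summed to 0, 6.41, 23.8, 1.39 and 141 FPKM in Dcon and to 0.104 to 76.3 in D8W, highest in Dcon replicate 5 and in D8W replicates 5 and 1 (76.3 and 55.9). Of that list, TAL2 reached 45.1 FPKM in D8W replicate 1, and GATA2, which marks V2b cells, was at most 9.40 FPKM in any of the 11 libraries.

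**Figure D1:**
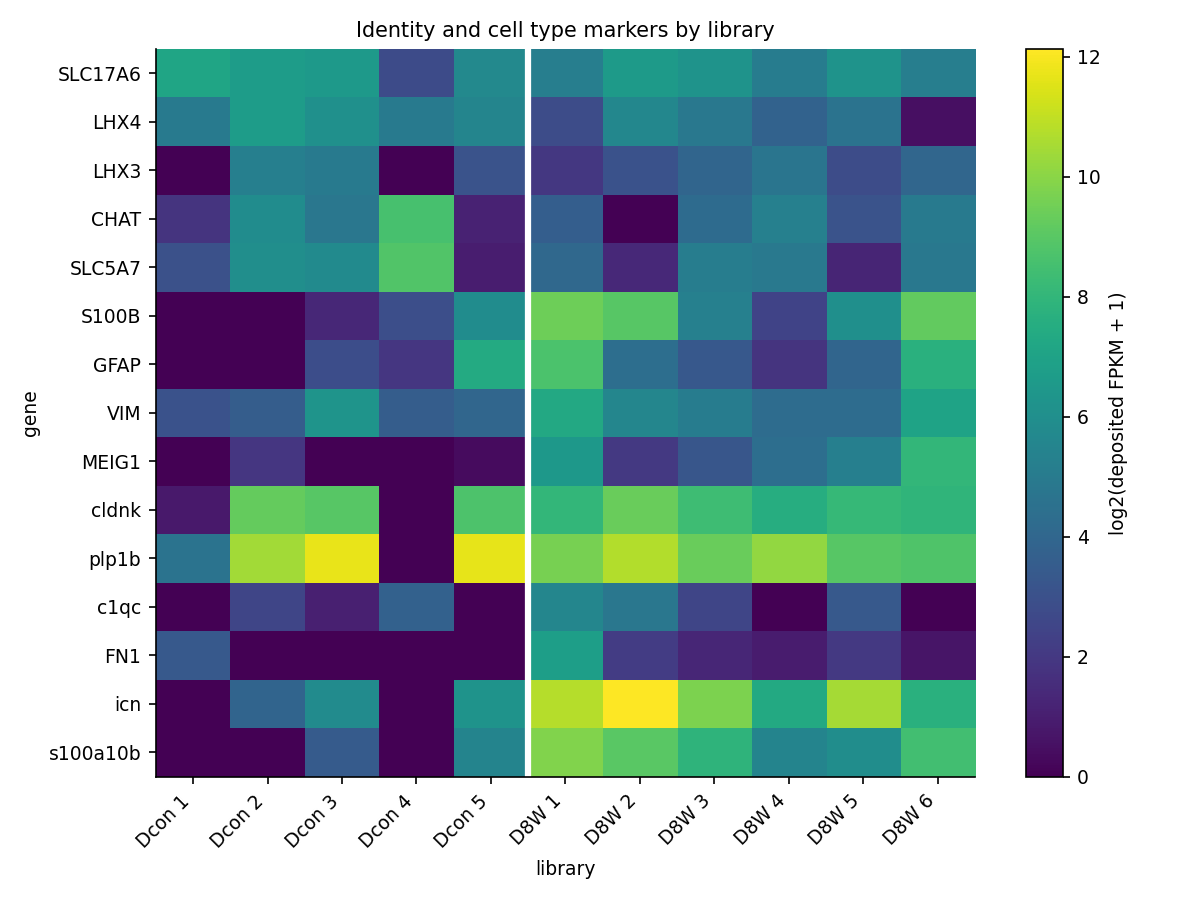
Levels of identity and cell type markers in each of the 11 libraries, as log2(deposited FPKM + 1), with Dcon left of the white line and D8W right of it. SLC17A6 is low (5.81 FPKM) and CHAT high (389 FPKM) in Dcon replicate 4, and S100B and GFAP are highest in D8W replicate 1.

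Markers of other cell types were present in both groups, at levels that differed between libraries. Of 18 astroglial and ependymal genes analysed, 16 had a positive fold change, against 55.7% of all genes analysed. Their median was 1.71 against 0.11 for all, and 1 of the 18, S100B, passed the test. The median was 0.90 without Dcon replicate 4 and D8W replicate 1. The summed level of that list ran from 566 to 3964 FPKM in Dcon and from 530 to 6753 in D8W. GFAP, the intermediate filament of astroglia, was listed at 0 in Dcon replicates 1 and 2, stood at 168 FPKM in Dcon replicate 5, and ranged from 2.55 to 409 FPKM in D8W. Oligodendrocyte and Schwann genes summed to 3643 to 9089 FPKM in Dcon and 2258 to 9315 in D8W. Their tight junction gene cldnk was near 0 in Dcon replicates 1 and 4 (0.754 and 0 FPKM) and stood at 423 to 612 in the other Dcon libraries and at 188 to 647 in D8W. The myelin gene plp1b stood at 23.6, 1402, 3373, 0 and 3262 FPKM in Dcon and at 445 to 1689 in D8W, between the low and the high Dcon libraries for the most part. Microglial and macrophage genes had a median fold change of -0.07 over 19 genes, of which 0 passed limma's test and 0 had an unadjusted p under 0.05. In bulk libraries such as these, fewer cells of a type and less RNA per cell cannot be told apart.

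Few genes passed the test. Across the 22552 genes tested, 14 passed at a limma adjusted p under 0.05, which is 0.0621% of them, with 9 (0.0399%) higher and 5 (0.0222%) lower in D8W. On deposited FPKM the balance turned, with 19 calls of which 6 were higher and 13 lower. Of the 14 calls on scaled FPKM, 13 were among the 13514 genes analysed (0.0962%), and the other was a 5S ribosomal RNA copy that lies outside them. At an unadjusted p under 0.05 there were 2425 of the 22552 genes tested (10.8%). The list counts at that threshold cover only genes among the 13514 analysed, for which the share was not worked out. All 6 D8W libraries lay above all 5 Dcon libraries on scaled FPKM for 104 of the genes analysed (0.77%), and below them for 119 (0.881%). On deposited FPKM these counts were 49 (0.363%) and 324 (2.4%). A gene listed at 0 in any Dcon library cannot lie wholly below, and 3918 of the 13514 genes reached 1 FPKM in all 11 libraries. The shares over all genes are therefore not matched for level to lists of abundant genes. The 13 genes past the test were 9 that rose, s100a10b, icn, LECT2, TCIM, myo10l3, PHGDH, MEIG1, S100B and a 5.8S ribosomal RNA copy, and 4 that fell, ATP1B1, fosaa, PAQR7 and FGF20. In 11 of the 13 the groups did not overlap on scaled FPKM, and in 9 of them not on deposited FPKM either. Without Dcon replicate 4 the test called 5 genes, with 4 of the 13 kept. Without it and D8W replicate 1 together it called 4 genes, with 3 of the 13 kept.

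**Figure D2:**
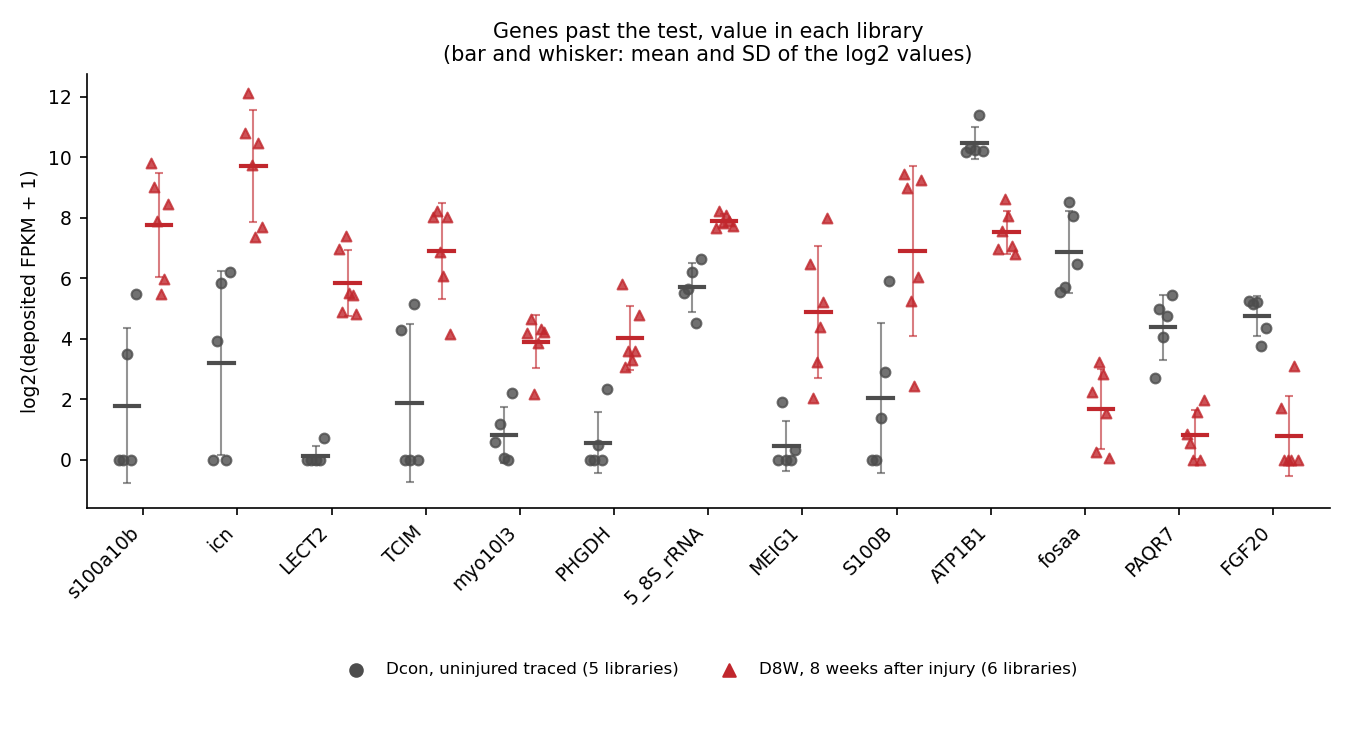
Deposited FPKM, as log2(FPKM + 1), of the 13 genes past the test in each Dcon (circles) and D8W (triangles) library, with the mean and SD of the log2 values. The 9 genes on the left rose and the 4 on the right fell, and on this scale the groups overlap for TCIM, S100B, s100a10b and myo10l3.

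Of the genes that rose, the 2 with the largest fold changes at a pseudocount of 1 were S100 genes, which encode small calcium-binding proteins. Both had Dcon libraries listed at 0, so the size of their fold changes depends on the pseudocount. Ictacalcin, icn, an S100 protein described in fish, stood at 0, 14.1, 56.6, 0 and 73.3 FPKM in Dcon and in D8W at a lowest of 164, a median of 1144 and a highest of 4474. Every D8W library lay above every Dcon library. The log2 fold change was 6.82 ± 1.01 (limma adjusted p = 0.00148). The call held in each of the 11 fits that left out 1 library and was lost when only the 2 groups were fitted (adjusted p = 0.0884).

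The gene s100a10b, whose mammalian counterpart forms a complex with annexin A2 at the plasma membrane, was listed at 0 in Dcon replicates 1, 2 and 4 and stood at 10.3 and 44.0 FPKM in replicates 3 and 5. In D8W its lowest level was 44.0, its median 294 and its highest 900 FPKM. The D8W libraries were all higher once scaled, while on deposited FPKM the lowest D8W library stood at the level of the highest Dcon library. The log2 fold change was 6.23 ± 0.90 (limma adjusted p = 0.000847), and the call held in all 11 fits that left out 1 library.

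S100B, a calcium-binding protein of astroglia, stood at 0, 0, 1.59, 6.45 and 59.1 FPKM in Dcon. Its D8W levels ran from 4.38 through a median of 286 to 700 FPKM, so the groups overlapped. It rose by 5.13 ± 1.07 on the log2 scale (limma adjusted p = 0.0455). This call was lost in 8 of the 11 fits that left out 1 library, with only the fits without Dcon replicate 5, D8W replicate 3 or D8W replicate 4 keeping it (largest adjusted p 0.154). D8W replicates 1, 2 and 6 held its highest levels, and replicates 1 and 6 were also the highest for GFAP.

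Over all 14 S100 and annexin genes analysed, 9 had positive fold changes, with a median of 2.28, or 1.49 without Dcon replicate 4 and D8W replicate 1. Of the 14, 3 passed the test, all higher. ANXA1, which binds membranes in the presence of calcium, stood at 0, 0, 1.65, 0 and 0.403 FPKM in Dcon and at 0 to 134 in D8W, and did not pass (log2 3.65 ± 1.04, adjusted p = 0.171). The S100 and annexin list summed to 160 to 308 FPKM in Dcon and 382 to 5631 in D8W, highest in D8W replicates 1, 2 and 6 (5003, 5631 and 2660). The astroglial and ependymal list had its highest D8W sums in the same libraries (6753, 2113 and 3100 FPKM), and its highest Dcon sum in replicate 5 (3964). S100B belongs to both lists and held 700, 507 and 603 FPKM in those D8W libraries, so the sums share that part. The part of astroglial RNA in the S100 levels was not tested.

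LECT2 (ENSDARG00000090889), a secreted protein first described as a chemotactic factor for leukocytes, was listed at 0 in Dcon replicates 1 to 4 and at 0.636 FPKM in replicate 5. In D8W its lowest level was 27.5, its median 43.5 and its highest 169 FPKM, all above every Dcon library. It rose by 5.88 ± 0.98 on the log2 scale (limma adjusted p = 0.00536), a size that depends on the pseudocount because 4 of the controls were listed at 0. The call held in all 11 fits that left out 1 library, and was lost without Dcon replicate 4 and D8W replicate 1 together (adjusted p = 0.0595).

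TCIM (ENSDARG00000076858), a small regulator that acts in Wnt signalling in mammals, stood at 18.4, 0, 0, 35.0 and 0 FPKM in Dcon and at 16.8 to 296 in D8W, with a median of 189. The lowest D8W library fell within the range of the controls. The gene rose by 5.27 ± 0.92 (limma adjusted p = 0.00744) and kept its call in all 11 fits that left out 1 library, and without Dcon replicate 4 and D8W replicate 1 together (adjusted p = 0.00616).

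PHGDH, which opens the pathway from a glycolytic intermediate to serine, was listed at 0 in Dcon replicates 1, 2 and 4 and stood at 0.421 and 4.09 FPKM in replicates 3 and 5. D8W ranged from 7.36 through a median of 11.1 to 55.4 FPKM, with no overlap. It rose by 3.66 ± 0.69 (limma adjusted p = 0.0169), a call lost without Dcon replicates 1, 2 or 4 or D8W replicates 1 or 6 (largest adjusted p 0.0744). Of the 14 serine and one-carbon genes analysed, PHGDH alone passed, and their median was 0.06.

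The myosin X-like gene myo10l3 stood at 0.522, 1.26, 0.0402, 0 and 3.67 FPKM in Dcon and at 3.57, 17.4 and 24.0 FPKM (lowest, median and highest) in D8W. Myosin X carries cargo into filopodia in mammalian cells. The gene rose by 3.34 ± 0.63 (limma adjusted p = 0.0169), and its groups separated once scaled. That call was lost without Dcon replicates 1, 3 or 4 or D8W replicate 6 (largest adjusted p 0.0718).

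MEIG1, needed for building the sperm flagellum in mice, stood at 0, 2.80, 0, 0 and 0.267 FPKM in Dcon and at 3.08 to 256 in D8W, with a median of 28 and no overlap. It rose by 4.65 ± 0.95 (limma adjusted p = 0.0357), and the call was lost without Dcon replicates 1, 3, 4 or 5 or D8W replicates 1, 5 or 6 (largest adjusted p 0.107). Of 28 motile cilium genes analysed, a list chosen after the values were seen, 24 had a positive fold change, against 55.7% of all genes. Their median was 0.85. MEIG1 alone passed, and the list summed to 130 to 167 FPKM in Dcon and 143 to 1221 in D8W. D8W replicates 1 and 6 held the highest sums (1141 and 1221), and replicates 2 and 4 (147 and 143) lay within the Dcon range. Motile cilia are borne by ependymal cells, and the part of such cells in these levels was not tested. A 5.8S ribosomal RNA copy (ENSDARG00000111902) rose by 2.61 ± 0.51 (limma adjusted p = 0.0262), from 21.8 to 99.4 FPKM in Dcon to 201 to 300 in D8W. Near-identical copies share its reads, so its level is uncertain, and the call was lost in 6 of the 11 fits that left out 1 library: those without Dcon replicates 1, 2 or 4 or D8W replicates 2, 5 or 6 (largest adjusted p 0.103).

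Among the genes that fell, ATP1B1 had the highest level. ATP1B1 (ENSDARG00000076833) encodes a beta subunit of the sodium pump, which restores the sodium and potassium gradients after firing. It stood at 1166, 1284, 1214, 2701 and 1180 FPKM in Dcon and in D8W at a lowest of 112, a median of 161 and a highest of 398. The groups were far apart, and Dcon replicate 4 was the highest of all. The gene fell by 2.53 on the log2 scale (SE 0.44, limma adjusted p = 0.00744), and without Dcon replicate 4 the adjusted p was 0.0638 with a log2 change of -2.27.

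Of the 15 sodium pump genes analysed, 8 had a negative and 7 a positive fold change, and ATP1B1 alone passed. Their median was -0.26, or -0.61 on deposited FPKM, where that of all genes analysed was -0.18. ATP1B2 (ENSDARG00000099203), another beta subunit, stood at 822, 1270, 1369, 1087 and 893 FPKM in Dcon and at 170 to 588 in D8W (log2 -1.31 ± 0.37, adjusted p = 0.170). The neuronal alpha subunit atp1a3a stood at 283, 291, 173, 188 and 260 FPKM in Dcon and at 39.1 to 137 in D8W (log2 -1.04 ± 0.33, adjusted p = 0.216). For both, every D8W library lay below every Dcon library on deposited FPKM, and for atp1a3a also on scaled FPKM. The summed level of the list was 3631 to 6115 FPKM in Dcon and 1406 to 2296 in D8W, with no overlap.

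The immediate-early gene fosaa, a Fos transcription factor switched on by neuronal activity, stood at 45.5, 51.8, 365, 265 and 87.7 FPKM in Dcon. In D8W it ranged from 0.0518 through a median of 2.80 to 8.46 FPKM, below every control. It fell by 4.84 on the log2 scale (SE 0.89, limma adjusted p = 0.0147), a call lost without Dcon replicate 3, Dcon replicate 4 or D8W replicate 6 (largest adjusted p 0.0698). Of the 32 immediate-early genes analysed, fosaa alone passed. A positive fold change was found for 20 of the 32, near the 55.7% of all genes analysed, with a median of 0.41. That median was 0.07 on deposited FPKM and -0.015 without Dcon replicate 4 and D8W replicate 1, against -0.18 and 0.027 for all genes analysed. GADD45A (ENSDARG00000104571), a stress-response gene of that list, stood at 0 to 12.7 FPKM in Dcon and 8.64 to 70.6 in D8W and did not pass (adjusted p = 0.280).

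FGF20 (ENSDARG00000007356), a secreted fibroblast growth factor, stood at 37.1, 34.8, 35.9, 12.7 and 19.5 FPKM in Dcon. It was listed at 0 in 4 of the 6 D8W libraries and at 2.27 and 7.67 FPKM in D8W replicates 1 and 5. It fell by 3.64 on the log2 scale (SE 0.73, limma adjusted p = 0.0288), with no overlap, and the call was lost without Dcon replicates 1, 2, 3 or 4 or D8W replicates 2 or 6 (largest adjusted p 0.108). A second ligand, FGF6 (ENSDARG00000045856), was listed at 0 in D8W replicates 2 to 6 and stood at 2.48 FPKM in replicate 1, against 14.5, 4.91, 12.5, 0 and 8.65 FPKM in Dcon. FGF6 did not pass (log2 -2.21 ± 0.49, adjusted p = 0.0558). Of 26 FGF ligands, receptors and targets analysed FGF20 alone passed, and their median was -0.08.

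PAQR7, a membrane progesterone receptor, stood at 5.47, 30.6, 15.6, 26.0 and 42.6 FPKM in Dcon and at 0 to 2.91 in D8W, with a median of 0.654. It fell by 3.27 on the log2 scale (SE 0.64, limma adjusted p = 0.0271) with no overlap. The call was lost without Dcon replicates 2, 3, 4 or 5 or D8W replicates 1, 2 or 5 (largest adjusted p 0.108).

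Glycolysis genes did not pass the test one by one. Of the 25 analysed, 18 had a negative and 7 a positive fold change, with a median of -0.64. None passed limma's test (0 of 25, and 10 at an unadjusted p under 0.05). On scaled FPKM, 5 lay wholly below Dcon (20%, against 0.881% of all genes analysed), and on deposited FPKM 11 did (against 2.4% of all). Here and in the lists below, the share over all genes is not matched for level. Pyruvate kinase, PKM (ENSDARG00000099730), stood at 1079, 1948, 1899, 1617 and 1187 FPKM in Dcon and at 183, 322 and 733 FPKM (lowest, median and highest) in D8W. Its log2 change was -1.65 ± 0.42 (adjusted p = 0.121), with every D8W library lower. The isomerase GPI (ENSDARG00000012987) stood at 1217, 1177, 1200, 1140 and 848 FPKM in Dcon and at 166 to 563 in D8W (log2 -1.29 ± 0.34, adjusted p = 0.134). The aldolase ALDOC (ENSDARG00000019702) and the neuronal glucose transporter slc2a3a were likewise lower in all 6 D8W libraries, at 430 to 1380 against 1682 to 2780 FPKM and at 9.07 to 54.7 against 85.1 to 226 FPKM. Another ALDOC entry (ENSDARG00000057661), at a far lower level, went the other way. It stood at 0 to 3.24 FPKM in Dcon and 0 to 9.32 in D8W (log2 1.87 ± 0.54, adjusted p = 0.172). The dehydrogenase GAPDHS, the most abundant of those named here, stood at 4586 to 7879 FPKM in Dcon and 1686 to 4040 in D8W, and its groups overlapped once scaled.

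The citric acid cycle and the malate-aspartate shuttle, which feed electrons to the respiratory chain, had mostly negative fold changes. Of 34 genes analysed, a list chosen after the values were seen, 32 had a negative fold change, with a median of -0.97. Of the 34, 0 passed limma's test and 16 had an unadjusted p under 0.05. On scaled FPKM, 6 lay wholly below Dcon (17.6%, against 0.881% of all genes analysed), among them CS, DLAT, GOT2, SLC25A11 and SLC25A12. Citrate synthase, CS, stood at 90.7, 58.1, 40.2, 90.3 and 50.2 FPKM in Dcon and at 4.81 to 25.2 in D8W (log2 -1.75 ± 0.55, adjusted p = 0.216). DLAT, a core of the pyruvate dehydrogenase complex, stood at 40.6 to 78.6 FPKM in Dcon and at 6.21 to 14.7 in D8W.

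Respiratory chain genes are encoded in the mitochondrial and the nuclear genome, and none of either set passed the test. All 13 protein genes of the mitochondrial genome had positive fold changes, with a median of 1.10. It was 0.68 on deposited FPKM and 0.49 after quantile normalization, against -0.18 and -0.087 for all genes analysed. Of the 13, 0 passed limma's test and 10 had an unadjusted p under 0.05. MT-CO2, a cytochrome oxidase subunit, stood at 16625, 24507, 24527, 22136 and 30084 FPKM in Dcon and at 27747 to 67680 in D8W (log2 1.38 ± 0.35, adjusted p = 0.119). Of 92 nuclear respiratory chain genes, 78 had a negative fold change, with a median of -0.32. The nuclear median was -0.74 on deposited FPKM and -0.080 without Dcon replicate 4 and D8W replicate 1, against -0.18 and 0.027 for all genes analysed. None of these passed limma's test (0 of 92, and 9 at an unadjusted p under 0.05). On scaled FPKM, 2 lay wholly below Dcon, CYC1 and NDUFV1 (2.17%, against 0.881% of all genes analysed). On deposited FPKM 20 did, where 2.4% of all genes analysed did.

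The 13 mitochondrial genes held 10.49% ± 2.37 of the summed FPKM in Dcon (SD, n = 5) and 18.1% ± 5.66 in D8W (SD, n = 6). The difference gave p = 0.0216 in an exact two-sided permutation test and 0.0505 after adjustment over 5 library measures, and p was 0.0667 without Dcon replicate 1 and 0.0571 without Dcon replicate 4. The most abundant gene, ENSDARG00000080337, which has no symbol in the tables used here, took 17.6% ± 1.67 of the FPKM in Dcon and 26.4% ± 5.10 in D8W (exact permutation p = 0.00649, adjusted 0.0325). These shares moved with the comparison, and their part in the lower FPKM of other genes was not tested beyond the scaling.

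**Figure D3:**
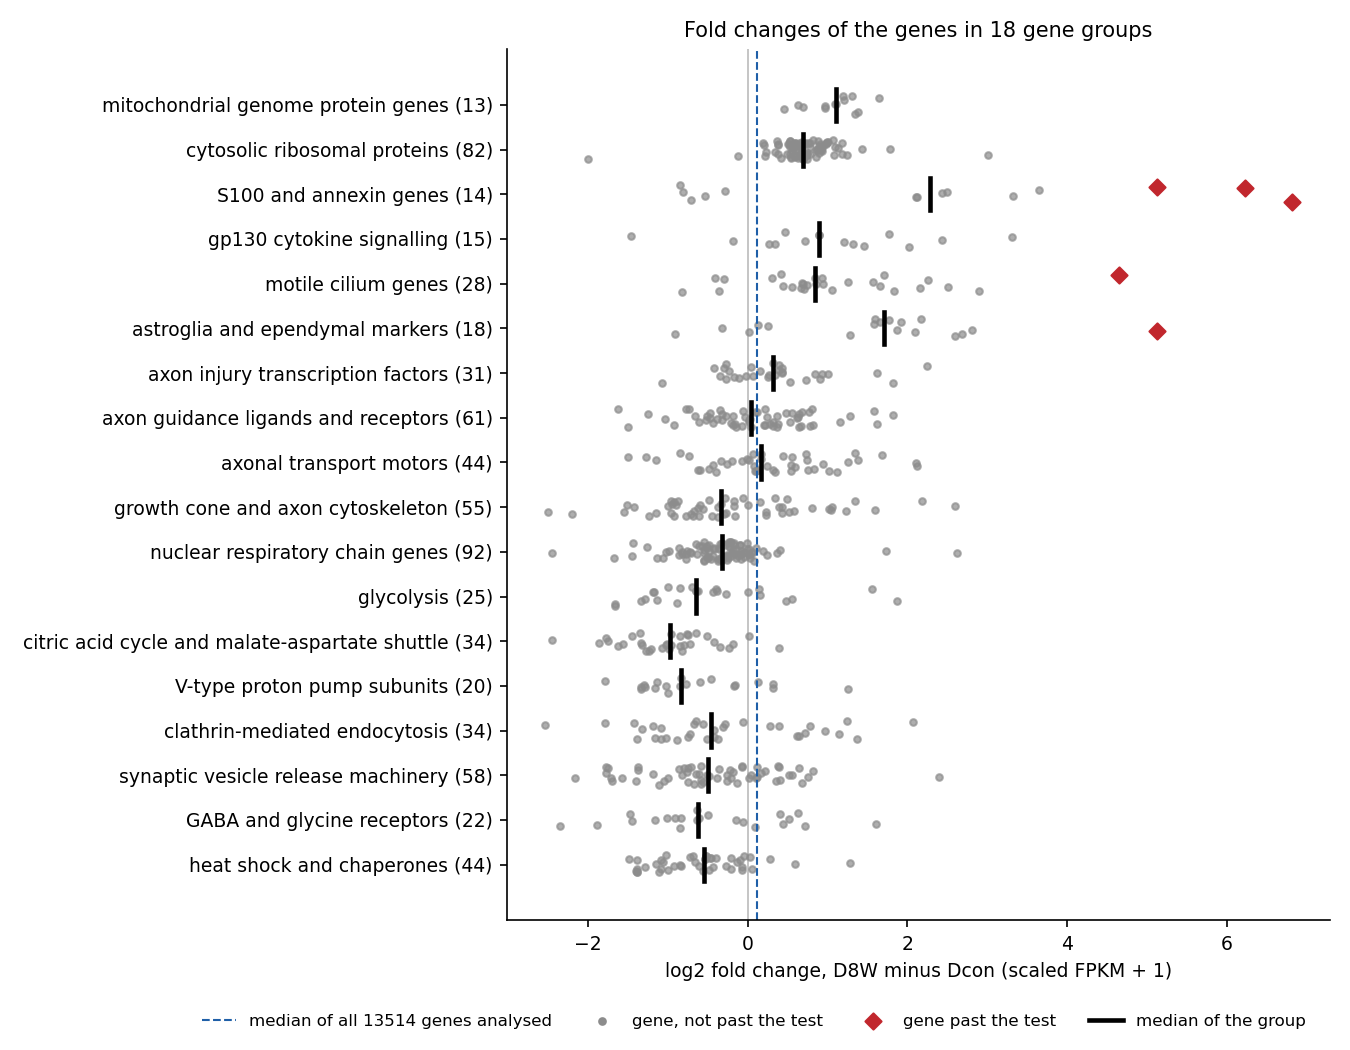
Log2 fold changes of the genes in 18 gene groups, D8W minus Dcon, with 1 point per gene, the number of genes in brackets, a black bar at the group's median and a dashed line at the median of all 13514 genes analysed (0.11). The citric acid cycle group has a median of -0.97 and the mitochondrial genome group one of 1.10, and 5 points, for 4 different genes, passed the test.

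Genes of synaptic vesicles gave no call. Of 58 genes of the release machinery analysed 40 had a negative fold change, with a median of -0.50. Of the 58, 0 passed limma's test and 15 had an unadjusted p under 0.05. On scaled FPKM, 3 lay wholly below Dcon (SYN2, SYT12 and syn2b), which is 5.17%, against 0.881% of all genes analysed. Synapsin 2, SYN2, which ties vesicles into the reserve pool, stood at 205, 251, 193, 203 and 185 FPKM in Dcon and at 31.2 to 126 in D8W (log2 -1.40 ± 0.44, adjusted p = 0.218). The summed level of the list was 12604 to 18929 FPKM in Dcon and 5517 to 11600 in D8W. The sums did not overlap on deposited FPKM and overlapped once scaled.

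Vesicle recycling and acidification gave similar values. Of 34 genes of clathrin-mediated endocytosis, a list chosen after the values were seen, 23 had a negative fold change, with a median of -0.46. Of the 34, 0 passed limma's test and 10 had an unadjusted p under 0.05. On scaled FPKM, 7 lay wholly below Dcon (20.6%, against 0.881% of all genes analysed). Endophilin A1, SH3GL2, which bends the vesicle neck, stood at 706, 540, 415, 522 and 335 FPKM in Dcon and at 59.0, 120 and 161 FPKM (lowest, median and highest) in D8W. Its log2 change was -1.78 ± 0.42 (adjusted p = 0.0875), with every D8W library lower. The clathrin light chain CLTA stood at 556 to 817 FPKM in Dcon and 156 to 351 in D8W, and the adaptor snap91b at 131 to 289 and 40.9 to 107.

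The V-type proton pump acidifies synaptic vesicles and lysosomes. Of 20 subunit genes, also listed after the values were seen, 16 had a negative fold change, with a median of -0.84. Of the 20, 0 passed limma's test and 10 had an unadjusted p under 0.05. On scaled FPKM, 3 lay wholly below Dcon (15%, against 0.881% of all genes analysed). One ATP6V1A copy (ENSDARG00000034534), the catalytic subunit, stood at 121, 129, 107, 119 and 99.4 FPKM in Dcon and at 26.9 to 55.2 in D8W (log2 -1.34 ± 0.39, adjusted p = 0.178). The other copy (ENSDARG00000076318) stood at 100 to 213 FPKM in Dcon and 16.3 to 49.8 in D8W.

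**Figure D4:**
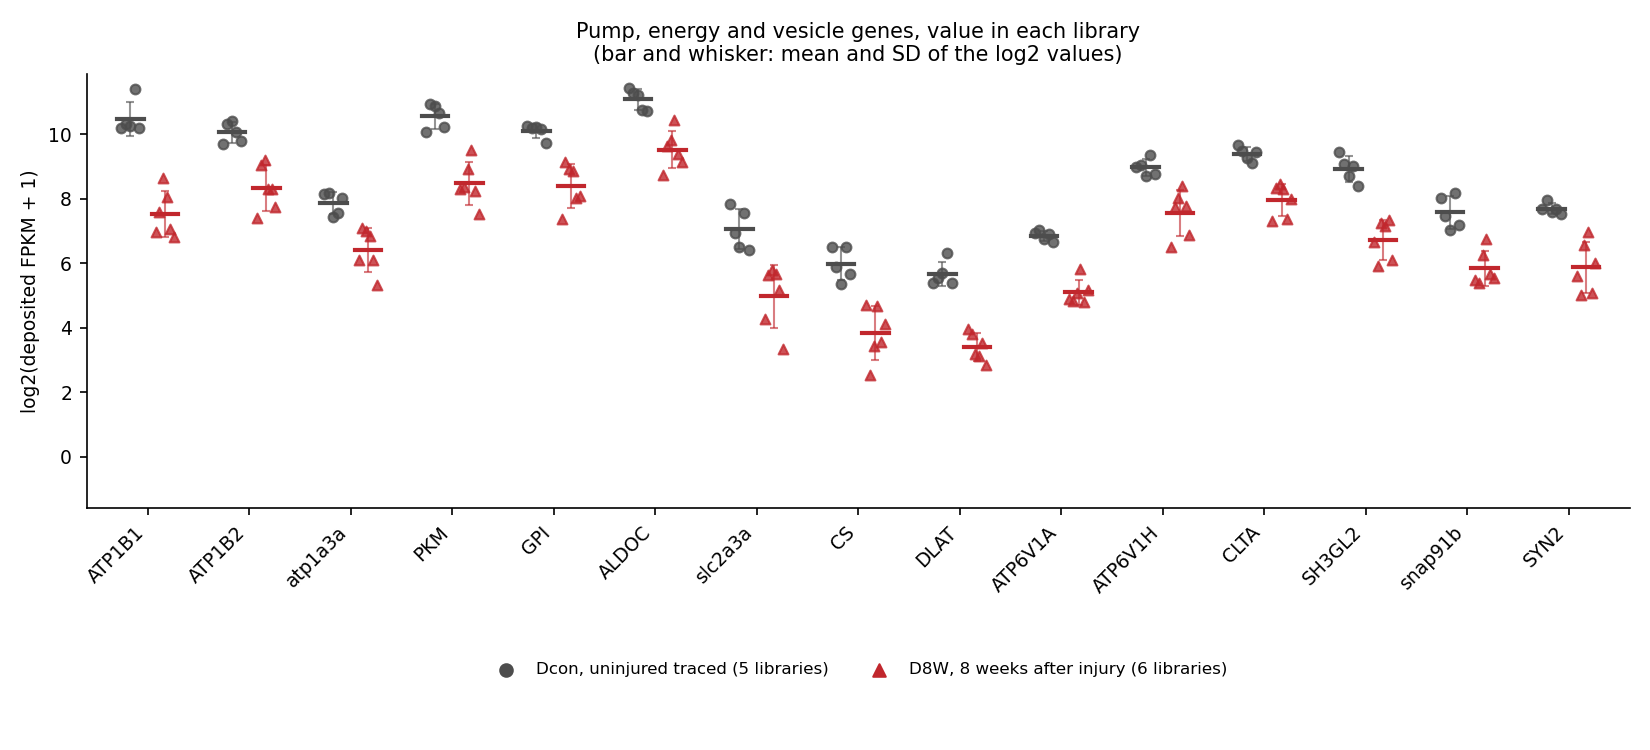
Deposited FPKM, as log2(FPKM + 1), of 15 pump, energy and vesicle genes in each Dcon (circles) and D8W (triangles) library, with the mean and SD of the log2 values. For the 15 genes every D8W library lies below every Dcon library on deposited FPKM, as for 2.4% of all genes analysed. Most of the 15 were chosen after their values were seen, so this is a description. ATP1B2 overlapped once scaled, and ATP1B1 alone passed the test. GAPDHS and the other ALDOC entry, which went the other way, are not shown. ATP6V1A is ENSDARG00000034534.

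Channels and receptors gave scattered values. GJD2 (ENSDARG00000067999), a connexin of electrical synapses, stood at 18.8 to 60.8 FPKM in Dcon and 0 to 13 in D8W (log2 -2.28 ± 0.89, adjusted p = 0.339). Its paralogue ENSDARG00000070781 stood at 0 to 15.6 and 0.485 to 19.1 FPKM. Of 22 GABA and glycine receptor genes 15 had a negative fold change (median -0.62), and of 29 glutamate receptor genes 17 had one (median -0.28). In neither list did a gene pass limma's test (0 of 22 and 0 of 29, with 4 and 3 at an unadjusted p under 0.05). Potassium channels (39 genes, median -0.14), calcium channel subunits (29 genes, median -0.13) and sodium channel alpha subunits (4 genes, median 0.32, -0.050 on deposited FPKM and 0.58 without both libraries that stood apart) also held 0 called genes by limma, with 4, 1 and 0 at an unadjusted p under 0.05. The median of all genes analysed was -0.18 on deposited FPKM and 0.027 without both libraries.

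Transmitter genes of V2a cells did not pass the test in either direction. SLC17A6 (ENSDARG00000041150) stood at 140, 104, 91.4, 5.81 and 51.5 FPKM in Dcon and at 33.6 to 95.2 in D8W, with a log2 change of 0.39 ± 0.50 that turned to -0.33 without Dcon replicate 4. Its paralogue ENSDARG00000001127 stood at 32, 32.6, 31.0, 18.1 and 9.79 FPKM in Dcon and at 0.0226 to 9.76 in D8W (log2 -1.87 ± 0.68, adjusted p = 0.293).

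Genes tied to axon growth gave no call at 8 weeks. Of 31 transcription factors known from axon injury 0 passed limma's test, 4 had an unadjusted p under 0.05, and the median was 0.31. It was 0.019 on deposited FPKM and 0.077 without Dcon replicate 4 and D8W replicate 1, against -0.18 and 0.027 for all genes analysed. ATF3, a factor induced in injured neurons, stood at 517, 70.0, 92.8, 161 and 88.0 FPKM in Dcon and at 43.2 to 203 in D8W (log2 -0.17 ± 0.53, adjusted p = 0.946). SOX11 (ENSDARG00000077811), which promotes axon growth in mammals, stood at 4.06 to 41.4 FPKM in Dcon and 3.62 to 24.6 in D8W (adjusted p = 0.762). The growth cone protein gene gap43 stood at 440, 303, 191, 505 and 470 FPKM in Dcon and in D8W at a lowest of 13.8, a median of 170 and a highest of 994. D8W replicate 4 was above every control for gap43, and the other D8W libraries ran from below the controls into their range (log2 -0.92 ± 0.62, adjusted p = 0.617).

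Of 55 growth cone and axon cytoskeleton genes, 36 had a negative fold change, with a median of -0.34, or -0.17 without Dcon replicate 4 and D8W replicate 1. None passed limma's test (0 of 55, and 13 at an unadjusted p under 0.05). On scaled FPKM, 3 lay wholly below Dcon (5.45%, against 0.881% of all genes analysed), DCLK1, basp1 and DPYSL5, the last as ENSDARG00000011141. Wholly above Dcon lay 1, tmsb4x (1.82%, against 0.77% of all). DCLK1 (ENSDARG00000018856), a microtubule-binding kinase, stood at 195, 136, 248, 139 and 115 FPKM in Dcon and at 32.6 to 58.8 in D8W (log2 -1.43 ± 0.45, adjusted p = 0.221). The actin-binding thymosin gene tmsb4x stood at 1068, 1352, 1365, 1479 and 1678 FPKM in Dcon and at 1639 to 3264 in D8W (log2 1.05 ± 0.35, adjusted p = 0.242). Axon guidance genes (61, median 0.04) and axonal transport motors (44, median 0.17) sat near the 0.11 of all genes. On deposited FPKM the medians were -0.21 and -0.10, against -0.18 for all genes analysed. They held 0 called genes by limma, with 4 and 6 at an unadjusted p under 0.05.

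Ribosomal and chaperone genes had fold changes of mostly opposite sign, and none passed the test. Of 82 cytosolic ribosomal protein genes, 80 had a positive fold change, against 55.7% of all genes analysed. Their median was 0.69, or 0.27 on deposited FPKM, where that of all genes analysed was -0.18. Of the 82, 0 passed limma's test and 28 had an unadjusted p under 0.05. The list summed to 13726 to 29994 FPKM in Dcon and 13638.5 to 42731 in D8W, so the sums overlapped. D8W replicates 1 and 6 held the highest sums (41708 and 42731), and replicate 5 the lowest. The gene rps27l, also a p53 target in mammals, stood at 0, 21.8, 33.5, 21.5 and 35.2 FPKM in Dcon and at 55.7 to 316 in D8W, with no overlap (log2 3.01 ± 0.67, adjusted p = 0.0558). Among 44 heat shock and chaperone genes there were 39 negative fold changes, with a median of -0.55, and 0 passed limma's test, with 6 at an unadjusted p under 0.05. HSPA8 (ENSDARG00000068992), the constitutive Hsp70, stood at 719, 616, 615, 948 and 781 FPKM in Dcon and at 159 to 405 in D8W (log2 -1.06 ± 0.38, adjusted p = 0.282). The inducible hsp70l stood at 603 to 1471 FPKM in Dcon and 88.3 to 782 in D8W, with D8W replicate 1 the highest of its group.

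Cytokine signalling through gp130, the shared receptor of the interleukin 6 family, gave 13 positive fold changes among 15 genes. Their median was 0.90, and 55.7% of all genes analysed had a positive fold change. Of the 15, 0 passed limma's test and 5 had an unadjusted p under 0.05. SOCS3 (ENSDARG00000025428), a feedback inhibitor of this pathway, stood at 12.7, 2.62, 61.3, 32.3 and 63.7 FPKM in Dcon and at 13.4, 83.2 and 596 FPKM (lowest, median and highest) in D8W, and D8W replicate 1 was the highest. The ligand partner crlf1a stood at 0.177, 2.67, 0, 0 and 0 FPKM in Dcon and at 0 to 88.2 in D8W (log2 3.31 ± 0.85, adjusted p = 0.131). The receptor cntfr went the other way, at 58.8, 65.1, 76.6, 179 and 59.9 FPKM in Dcon and 5.04 to 56.8 in D8W (log2 -1.47 ± 0.48, adjusted p = 0.237).

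Further genes separated the groups without passing the test. The copper transporter slc31a2 stood at 0, 16.8, 14.9, 0 and 40.1 FPKM in Dcon and at 35.7 to 172 in D8W (log2 3.74 ± 0.80, adjusted p = 0.0509), and its groups separated once scaled. The actin-binding gene lsp1a, known from leukocytes, stood at 0 to 0.0671 FPKM in Dcon and 0.681 to 14.8 in D8W (log2 3.00 ± 0.64, adjusted p = 0.0509). RIC8A, a chaperone of G protein alpha subunits, stood at 48.7, 25.0, 37.3, 15.0 and 27.0 FPKM in Dcon and at 0.148 to 12.9 in D8W (log2 -2.57 ± 0.57, adjusted p = 0.0558). PTPRN2, a protein of dense-core vesicles, stood at 120 to 241 FPKM in Dcon and 18.1 to 85.3 in D8W (log2 -1.51 ± 0.37, adjusted p = 0.101). The ubiquitin ligase TRIM9, which shapes axon branching in mice, stood at 16.8 to 61.5 FPKM in Dcon and 0.0302 to 10.4 in D8W (log2 -3.05 ± 0.77, adjusted p = 0.119).

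The untraced groups allow the change at 8 weeks to be set beside that of cells without tracer. The difference of the changes, D8W minus Dcon less G8W minus Gcon, passed the test for 0 of the 22552 genes (0%, limma), with 1027 (4.55%) at an unadjusted p under 0.05. For icn it was 4.66 ± 1.43 on the log2 scale (adjusted p = 0.987), and for ATP1B1 -1.33 ± 0.63 (adjusted p = 0.987). For TCIM it was 0.44 ± 1.30 (adjusted p = 0.994), and for fosaa -1.77 ± 1.26 (adjusted p = 0.987). These genes were chosen for the traced change, which is part of that difference, so the values are a description. Levels of icn were 34 to 1137 FPKM in Gcon and 445 to 2264 in G8W, so that the low values lay in Dcon. ATP1B1 stood at 205 to 765 FPKM in Gcon and at 141 to 298 in G8W, where the high values lay in Dcon. PKM (ENSDARG00000099730) had the same order, with 194 to 1540 FPKM in Gcon and 192 to 453 in G8W.

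The traced cells at 3 weeks share the Dcon libraries, and their levels are given beside those at 8 weeks without a test. In D3W, icn stood at 925 to 3130 FPKM, s100a10b at 64.5 to 1573, and TCIM at 85.3 to 638, which overlaps D8W in each case. LECT2 was listed at 0 in at least 1 D3W library and reached 130 FPKM in another. The levels of fosaa were 5.22 to 35.8 FPKM in D3W and 0.0518 to 8.46 in D8W, while PAQR7 stood at 4.22 to 38.5 FPKM in D3W and at most 2.91 in D8W. FGF20 ranged from 0 to 13.5 FPKM in D3W, and ATP1B1 from 37.2 to 597.

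**Figure D5:**
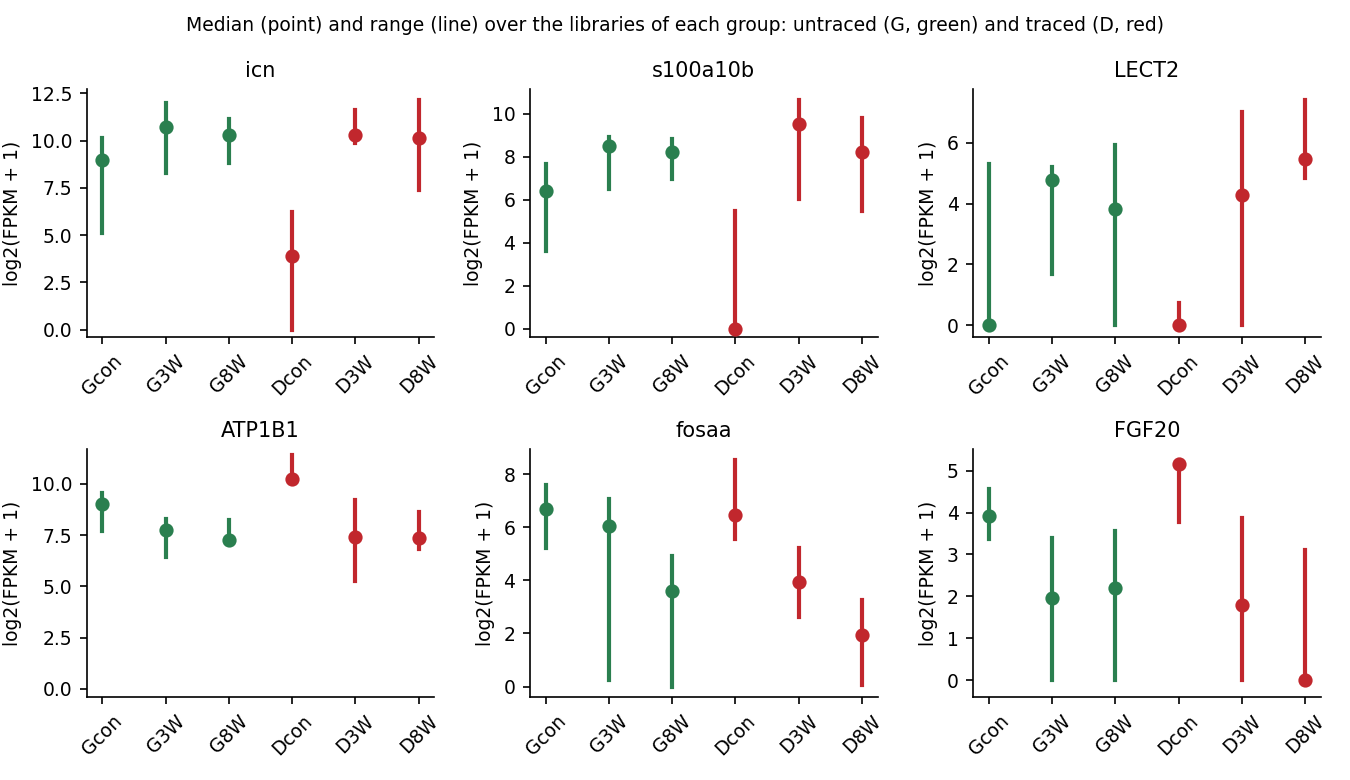
Median (point) and range (line) of log2(deposited FPKM + 1) for 6 of the genes past the test, over the libraries of the untraced groups (G, green) and the traced groups (D, red). Dcon is the lowest group by median for icn and s100a10b and the highest for ATP1B1 and FGF20.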

How the data were processed

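RNA of sorted V2a interneurons was sequenced, and per the labels' protocols libraries were made with a low-input SMART-Seq kit and a NEBNext kit. The authors deposited 1 table of FPKM values for 32 libraries, all of which were mapped to groups by their labels. Alignment and counting tools appear in the submitters' processing notes as HTSeq 0.9.1 and HISAT2 2.0.5, with danRer11 as the build, and no roles are stated. Strand use in counting is not given in the sources used here.

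Each library was scaled by the median of its ratios to the average library. The ratios used 6387 genes that reached 1 FPKM in 28 or more libraries, with a pseudocount of 0.1. Scaled FPKM were tested as log2(value + 1) in R 4.3.3 with limma 3.58.1, using robust empirical Bayes with a trend. The model had 1 mean for each of the 6 groups and covered the 22552 genes that reached 1 FPKM in 5 or more of the 32 libraries. Tests were two-sided with Benjamini-Hochberg adjustment over all genes tested, called under 0.05. The method was tested on simulated data. Library measures used exact permutation tests over 462 splits (smallest possible p 0.00216). Python 3.11.15, pandas 2.3.3, numpy 2.4.6, scipy 1.17.1 and matplotlib 3.10.9 were used.

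Library totals were inferred from steps in low FPKM values, and floors cover counting error only. Of 17 housekeeping genes checked, 16 were above 0 in all 11 libraries, and a GAPDH copy (ENSDARG00000043457) was listed at 0 in 7. Symbols came from a gene name table, matched 11726 of the genes analysed, and are followed by the ID at first mention where shared. The genes analysed, 43 lists and 5 further lists were chosen with earlier results of these data known, and list matching was widened after the symbol style was seen. Named genes were every gene past the test, up to 10 each way by p among genes whose groups did not overlap and averaged 5 FPKM or more in the higher group, the 2 of smallest p in each list, and a few fixed genes. Others, among them GJD2, CHAT, ANXA1, SOCS3 and the energy and endocytosis genes, were chosen after their values were seen. A few genes picked by either route are not reported here. No sequences are shown.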

Additional observations from a re-analysis of the deposited data

Results flagged for a closer look

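In 30 of 258 groups of values examined, 1 library lay far from the others by Dixon's ratio. Chance flags about 1 in 20 groups of normally distributed values. FPKM with several libraries at 0 are not so distributed, so the number of flags cannot be judged against that rate. The flag for lsp1a in Dcon replicate 3 (0.0671) lay under the floor of 0.143 FPKM for a gene of 1 kb. Values are deposited FPKM.

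Dcon replicate 4 was low for SOX11 (ENSDARG00000095743, 0) and high for ATP1B1 (2701), cntfr (179), igf2b (1.34) and the calcium channel subunit cacna2d1a (15.7). It is the library with high CHAT and SLC5A7 described above. Dcon replicate 1 was low for rps27l (0), DPYSL5 (ENSDARG00000059311, 3.80) and the ATP synthase subunit ATP5F1B (855), and high for PCSK1 (39.9), FN1 (ENSDARG00000006526, 9.29), SOX11 (ENSDARG00000077811, 41.4) and ALDOC (ENSDARG00000057661, 3.24). Dcon replicate 5 was high for LECT2 (0.636), PHGDH (4.09), the endothelial receptor tek (1.12) and CKB (ENSDARG00000069752, 65.6), and low for GPI (848). Dcon replicate 2 was high for MEIG1 (2.80) and crlf1a (2.67), and Dcon replicate 3 for lsp1a (0.0671) and PDGFRA (1.00).

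D8W replicate 1 was high for the number of genes at 1 FPKM or more (18215), FGF6 (2.48), the same FN1 (111), which encodes fibronectin and the complement gene c1qb (24.2), and low for GAPDHS (1686). Other single D8W libraries were myo10l3 in replicate 3 (3.57, low), gabrb1 in replicate 3 (2.33, high), CHAT in replicate 2 (0.0320, low) and EEF1E1 in replicate 6 (0, low).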

How the results depend on the processing

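The 14 calls became 7 with no filter, 19 on deposited FPKM (6 higher and 13 lower), 23 after quantile normalization, 32 adjusted over the genes analysed, 4 without Dcon replicate 4 and D8W replicate 1 together (chosen after seeing the data), and 5 to 33 over the fits that left out 1 library, 5 without Dcon replicate 4 and 33 without D8W replicate 3. The traced minus untraced difference gave 2 calls with array weights and 0 to 1 with 1 library left out. Genes lying wholly above Dcon numbered 49 on deposited FPKM, 69 after quantile normalization, 184 without both libraries and 131 to 190 without 1. Genes lying wholly below numbered 324 on deposited FPKM, 221 without both and 141 to 221 without 1. Leaving out a library can only keep or raise such counts, so that their rise was fixed in advance. Deposited FPKM lowered every list median, by 0.13 to 0.42, and the median of all genes analysed from 0.11 to -0.18. Without Dcon replicate 4 and D8W replicate 1 together, 20 of 47 list medians moved by over 1.5 times and 5 turned sign, those of V2b and V3 identity (0.58 to -0.49), immediate-early, motor neuron and cholinergic, retinoic acid (0.17 to -0.13) and neurotrophin and IGF genes (0.010 to -0.10). Among those that moved were intermediate filaments (0.83), p53 targets (0.020), the unfolded protein response (0.22), Hox genes (-0.46), inhibitory transmitter genes (-0.39) and neuropeptides (-0.28). The mitochondrial share differed by 6.05 to 8.79 percentage points with 1 library left out. The number of detected genes did not pass in any of those fits.

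Calls were lost under settings other than left-out libraries for icn (only the 2 groups), fosaa (pseudocount 0.1, no filter), myo10l3 (only the 2 groups), PHGDH (replicate block), the 5.8S copy (no filter, deposited FPKM), PAQR7 (no filter, only the 2 groups), FGF20 (4 of 9 settings), MEIG1 (5 of 9) and S100B (7 of 9), and the cause was not tested. Of 2667 named gene values under alternatives, 17 reversed. These are given with the range over the fits that left out 1 library or both: SLC17A6 (ENSDARG00000041150: -0.019 on deposited FPKM, range -0.33 to 0.70), SOX11 (ENSDARG00000095743: -0.24 to 0.78), CHAT (-1.36 to 0.51), SLC5A7 (ENSDARG00000074860: -1.91 to 0.048), NALCN (-0.017 on deposited FPKM, range -0.14 to 0.70), scn1lab (-0.0094 after quantile normalization), TAL2 (-0.49 to 1.21) and ATF3 (0.12 with array weights, range -0.42 to 0.28). SLC17A6, SOX11, CHAT and SLC5A7 turned without Dcon replicate 4.

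With the replicate number as a block 12 genes were called. Same-numbered Dcon and D8W libraries correlated between -0.09 and 0.08 in their deviations, and of the 5 only number 3 correlated best with its own. Whether they share more than a number cannot be told from these few values. At 3 fragments per kilobase as the floor, differences under 0.319 FPKM are not detectable in the shallowest library.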

Other observations

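Hox genes, which record position along the body axis, had 18 negative fold changes among 30 genes, with a median of -0.19. HOXC4 stood at 8.49, 16.2, 7.04, 20.7 and 39.0 FPKM in Dcon and at 0 to 5.74 in D8W (log2 -2.95 ± 0.76, limma adjusted p = 0.131). The sterol feedback gene insig1 stood at 29.5 to 95.6 FPKM in Dcon and 0.959 to 23 in D8W (log2 -2.02 ± 0.67, adjusted p = 0.246). The dynein gene DYNC2I1, which serves transport in cilia, stood at 0 to 2.43 FPKM in Dcon and 2.91 to 12.2 in D8W (log2 2.11 ± 0.56, adjusted p = 0.141). DPH7, an enzyme of diphthamide synthesis, stood at 0 to 0.672 FPKM in Dcon and 1.92 to 24.0 in D8W (log2 3.22 ± 0.69, adjusted p = 0.0526).

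The remaining lists held 0 genes past limma's test, with 0 to 4 genes each at an unadjusted p under 0.05. Median log2 fold changes above the 0.11 of all genes analysed were 0.39 for the unfolded protein response (27 genes), 0.26 for p53 targets and apoptosis (27), 0.22 for sterol synthesis (18), 0.17 for retinoic acid genes (15), 0.15 for intermediate filaments (10) and 0.12 for cAMP signalling (27). Those of translation elongation factors (12 genes) and of neurotrophin and IGF signalling (35) were 0.07 and 0.01. On deposited FPKM all of these medians except that of the unfolded protein response were negative, as was that of all genes analysed (-0.18). Negative medians were those of neuropeptides (14 genes, -0.17), inhibitory transmitter genes (9, -0.24), motor neuron and cholinergic genes (4, -0.46), glutamatergic transmitter genes (5, -0.63) and creatine kinases (3, -0.80, listed after the values were seen). That of the motor neuron and cholinergic genes turned to 0.24 without Dcon replicate 4 and D8W replicate 1.

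Among other cell types, the medians were 1.01 for fibroblast and meningeal genes (9 genes), 0.95 for red blood cell and endothelial genes (4), 0.77 for oligodendrocyte and Schwann genes (16, and 0.24 without Dcon replicate 4 and D8W replicate 1) and 0.63 for proliferation genes (5). The 1 neutrophil and lymphocyte gene analysed, MMP9, stood at 0 to 6.44 FPKM in Dcon and 0 to 46.9 in D8W. The sum of the oligodendrocyte and Schwann list ran the other way, with a median of 7715 FPKM in Dcon and 4294 in D8W. Fibroblast and meningeal genes summed to 9.07 to 160 FPKM in Dcon and 9.95 to 832 in D8W. Red blood cell and endothelial genes summed to 6.65 to 9454 FPKM in Dcon, highest in Dcon replicate 4, and to 10.9 to 108 in D8W. The part of these cells in the results was not tested.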
